A study of Drosophila melanogaster with 6 samples.

Results

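The fat storage proteins and lipases described here are 8 genes chosen by their role in triglyceride stores: bmm, Lsd-1, Lsd-2, Hsl, mdy, mag, Lip3 and Lip4. A gene was counted as measured where a probe set (a group of short probes that reads 1 transcript or gene) carried its symbol alone in the platform annotation. This held for 7 genes with 1 probe set each, among 18769 probe sets tested, and Hsl was not analysed here. RNA was taken from heads of Drosophila melanogaster males, 5 days old, and read on Affymetrix arrays, with 2 arrays in each of 3 groups. Controls were labelled wild-type, mutants carried a homozygous mutation of mir-14, a microRNA gene, and rescue flies were such mutants that also expressed miR-14 in the insulin-producing cells (IPCs) of the brain. The mutation was therefore present in every cell of the rescue flies, and by their label the microRNA was returned to the IPCs. Whether it was also expressed elsewhere was not measured here. The driver of that expression, the strain background and the number of flies in each RNA sample are not stated in the labels. Arrays are called 1 and 2 by the replicate number of their title. The study looked for transcripts with a higher level in mutants that the rescue returned towards control. Loss of mir-14 is known to alter fat stores in flies, a reason to examine these genes. They were chosen with earlier results of these data known.

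Flies store fat as triglyceride in lipid droplets, mostly in the fat body, a tissue that combines roles of liver and adipose tissue and is also present in the head. Triglyceride is made from glycerol phosphate and fatty acids, with diacylglycerol acyltransferase at the last step, is coated on the droplet by perilipins, and is broken down by lipases at the droplet surface. Other lipases act in the gut lumen on dietary fat or in lysosomes. Insulin signalling favours storage, whereas adipokinetic hormone and the transcription factor foxo favour release.

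The table held intensities on a linear scale after the authors' RMA processing. The 2 controls differed by 1.5-fold or more in 571 probe sets, the 2 mutant arrays in 104 and the 2 rescue arrays in 52, so the controls were the most variable. The actin control probe sets compare the 5' end of a transcript with its 3' end as a measure of RNA integrity. This ratio was lowest on control array 2 at 0.138, lay from 0.205 to 0.335 on the other control and the mutant arrays, and was 0.37 and 0.45 on the rescue arrays. Neuronal and photoreceptor markers were above the array medians of 59.6 to 60.7, as in heads. The summed intensity of 5 such genes lay between 23061.2 and 26135 on the 6 arrays, mostly from the photoreceptor genes Arr2 and trp. The neuronal genes elav and brp read from 243.8 to 435.1 and from 178.4 to 271.9. Markers of testis were dim, with 10 genes summing to between 209.3 and 258.4.

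Between mutant and control, 2 of the 7 member probe sets fell, bmm and Lsd-2, and 0 rose (adjusted p under 0.05 in limma, adjusted over all probe sets). Among all probe sets 3.88% fell, 6.88% rose and 10.8% passed in either direction. The median log2 difference of the 7 members was 0.041, beside -0.034 over all probe sets, so the members did not share a direction.

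bmm encodes Brummer, the fly counterpart of mammalian adipose triglyceride lipase, which removes the first fatty acid from stored triglyceride. Its intensity was 862.3 and 917.2 in controls, 558.7 and 510.2 in mutants and 938.8 and 737.5 with rescue. Both mutant arrays lay below all 4 others, and the rescue arrays enclosed the controls. In the mutant the level fell by 0.74 ± 0.13 (SE) on the log2 scale, to 0.60-fold of control, with a 95% confidence interval of -1.03 to -0.44 (limma adjusted p = 0.0132). The fall did not pass without mutant array 1 (-0.80, adjusted p = 0.0714) or mutant array 2 (-0.67, adjusted p = 0.11), and it passed under the other 12 of 14 alternative settings. Rescue heads were 1.56-fold above mutant heads in bmm (0.64 ± 0.13 log2, interval 0.34 to 0.94), which missed the threshold (limma adjusted p = 0.0688). That difference passed under 5 of 14 settings. Among them were the fit with only these 2 groups and those without control array 1 or 2. In each of these the spread is estimated from the mutant and rescue arrays alone, so they are the same result. Rescue and control differed by -0.10 ± 0.13 (adjusted p = 0.639), and the interval of -0.39 to 0.20 leaves room for a level from 0.76-fold to 1.15-fold of control. The comparisons of mutant with control and of rescue with mutant share the mutant arrays.

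**Figure D1:**
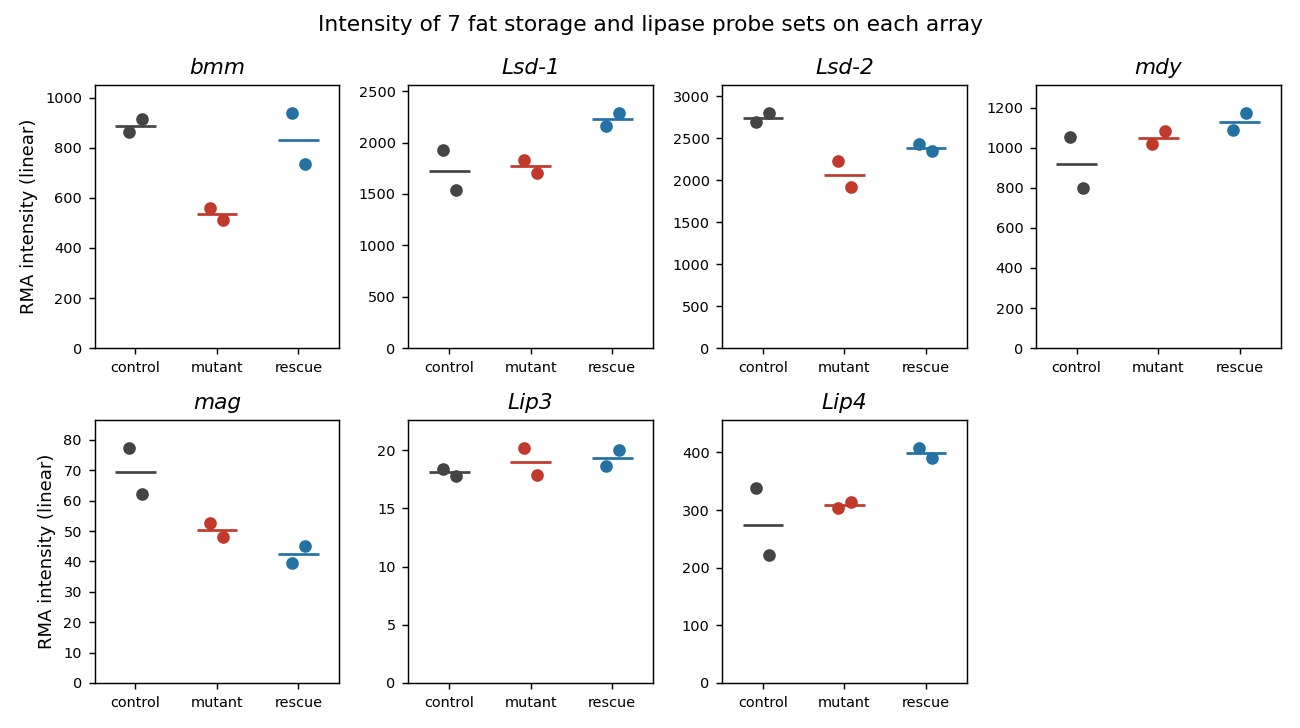
RMA intensity on a linear scale (vertical axes from 0) of the 7 member probe sets, with points for the 2 arrays of each group and bars for the geometric mean. In bmm both mutant arrays (558.7 and 510.2) lie below all others, mag descends from control to rescue, and Lip4 shows a wide gap between the 2 control arrays (337.5 and 221.3).

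The perilipins Lsd-1 and Lsd-2 coat lipid droplets. Lsd-2 (perilipin 2) shields the store from lipases, while Lsd-1 (perilipin 1) also relays the hormonal signal for fat release. Lsd-2 read 2688.6 and 2797.4 in controls, 2223.7 and 1912.2 in mutants and 2424.1 and 2340.8 with rescue. The 3 groups did not overlap, with control highest, mutant lowest and rescue between them. The mutant level fell by 0.41 ± 0.09 log2, to 0.75-fold of control (limma adjusted p = 0.0376). This call held under 6 of 14 settings. It was lost without control array 2 (-0.38, adjusted p = 0.0939), without mutant array 1 (-0.52, adjusted p = 0.0621), without mutant array 2 (-0.30, adjusted p = 0.203), without either rescue array (-0.41, adjusted p = 0.091), with only control and mutant arrays in the fit (adjusted p = 0.091), with array weights (adjusted p = 0.0675), and with the replicate number as a block (adjusted p = 0.0727). For Lsd-2 the rescue level was 0.21 ± 0.09 above mutant (limma adjusted p = 0.411) and -0.20 ± 0.09 from control (adjusted p = 0.198), so the neighbours in that order did not differ beyond the threshold.

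Lsd-1 showed another pattern. Its intensity was 1925.1 and 1534.4 in controls, 1830.3 and 1708.3 in mutants and 2165.1 and 2286 with rescue. Control and mutant overlapped, and both rescue arrays were above all others. For Lsd-1 the difference between mutant and control was 0.04 ± 0.12 log2 (limma adjusted p = 0.857), with an interval of -0.24 to 0.32. Rescue stood 0.33 ± 0.12 above mutant (adjusted p = 0.289) and 0.37 ± 0.12, or 1.29-fold, above control (adjusted p = 0.0878), and neither passed. Without control array 1, measured against the control with the poorest RNA integrity ratio alone, the last of these was 0.54. Without control array 2 it was 0.21. Over the 14 settings it lay from 0.19 to 0.54 and passed under 1 of them, that without control array 1. It did not pass with the RNA integrity ratio as a covariate.

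mdy (midway) encodes diacylglycerol acyltransferase 1, which adds the last fatty acid to make triglyceride. It read 1052.5 and 799.7 in controls, 1020.2 and 1081.4 in mutants and 1088.5 and 1172.9 with rescue. Control replicate 2 stood apart below the other 5 arrays, which lay within 1020.2 to 1172.9. The mdy differences were 0.20 ± 0.13 for mutant against control, 0.11 ± 0.13 for rescue against mutant and 0.30 ± 0.13 for rescue against control, with limma adjusted p of 0.388, 0.809 and 0.18. Without control array 1 the differences of mutant and of rescue from control were 0.39 (adjusted p = 0.0307) and 0.50 (adjusted p = 0.012), and without control array 2 they were -0.003 (adjusted p = 0.992) and 0.10 (adjusted p = 0.572). Over the 14 settings the mdy difference of rescue from control lay from 0.006 to 0.50. It did not pass with the RNA integrity ratio as a covariate. Whether mdy passed thus turned on which control array was used. Calls rose over all probe sets as well without control array 1, from 1291 higher and 729 lower to 2152 and 1877 in the mutant, and from 1281 and 985 to 2363 and 2516 in the rescue against control.

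mag (magro) encodes a lipase known to be secreted into the gut, where it digests dietary triglyceride. Its probe set was dim, at 77.4 and 62.2 in controls, 52.8 and 48 in mutants and 39.6 and 45.2 with rescue, and the groups did not overlap. The order ran from control through mutant to rescue, so the rescue flies were farther from control than the mutants. Rescue against control, mag fell by 0.71 ± 0.13 log2, to 0.61-fold (limma adjusted p = 0.0157, interval -1.01 to -0.41). It was the 1 member of 7 that passed in that comparison, in which 12.1% of all probe sets passed and 5.25% were lower. The mag call was lost without rescue array 1 (-0.62, adjusted p = 0.126) or rescue array 2 (-0.81, adjusted p = 0.0694). Mutant against control the difference was -0.46 ± 0.13 (adjusted p = 0.0658), which passed without control array 2 (-0.62, adjusted p = 0.022) and with the RNA integrity ratio as a covariate (-0.54, adjusted p = 0.0258), and rescue against mutant it was -0.25 ± 0.13 (adjusted p = 0.469). Of 13 measured genes of midgut digestive enzymes 0 passed in any of the 3 comparisons (limma), 2, 2 and 1 of them had an unadjusted p under 0.05, and their summed intensity stayed between 468 and 501.6 on the 6 arrays. These enzyme genes were dim, with single values from 6.1 to 103.3, and some may be at background. A steady sum of such values is of little use as a measure of gut RNA. Their part in the mag values was not tested.

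Lip3 and Lip4 belong to the acid lipase family, and Lip3 is known to be induced by starvation. Lip3 read from 17.8 to 20.2 on the 6 arrays, below the lower quartile of all tested probe sets on each array (20.4 to 22.3). The table carries no detection call, so whether Lip3 was above background is not known, and its differences of 0.07, 0.02 and 0.09 log2 (limma adjusted p from 0.531 to 0.958) are those of a probe set near the floor. Lip4 read 337.5 and 221.3 in controls, 303.1 and 314 in mutants and 408 and 390.3 with rescue. Its mutant arrays fell between the 2 controls, and both rescue arrays were above all others. For Lip4 the rescue level was 0.55 ± 0.18 log2, or 1.46-fold, above control (limma adjusted p = 0.0956) and 0.37 ± 0.18 above mutant (adjusted p = 0.447). The fit estimates 1 spread shared by the 3 groups. The standard deviation of Lip4 was 0.43 log2 in controls, 0.036 in mutants and 0.045 with rescue, so these SEs mostly reflect the controls. Mutant and control differed by 0.17 ± 0.18 (limma adjusted p = 0.572). Over the 14 settings the Lip4 difference of rescue from control lay from 0.15 to 0.85. It did not pass with the RNA integrity ratio as a covariate. The Lip4 difference from control was 0.85 without control array 1 (adjusted p = 0.00157) and 0.24 without control array 2 (adjusted p = 0.162). Mutant against control it was 0.48 (adjusted p = 0.0127) and -0.13 (adjusted p = 0.438) in the same order, and rescue against mutant it passed without either control array (0.37, adjusted p = 0.0449).

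In the comparison of rescue with mutant, 0 of the 7 members passed (limma), where 1.4% of all probe sets did. At an unadjusted p under 0.05 there were 2 members, bmm and Lsd-1, both higher in the rescue, beside 13.5% of all probe sets. In that comparison 6 members were higher and mag was lower, with a median log2 difference of 0.21 beside -0.015 over all probe sets. The rescue and mutant arrays did not overlap in 6 of the 7 members, and 49.1% of all probe sets had such groups.

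**Figure D2:**
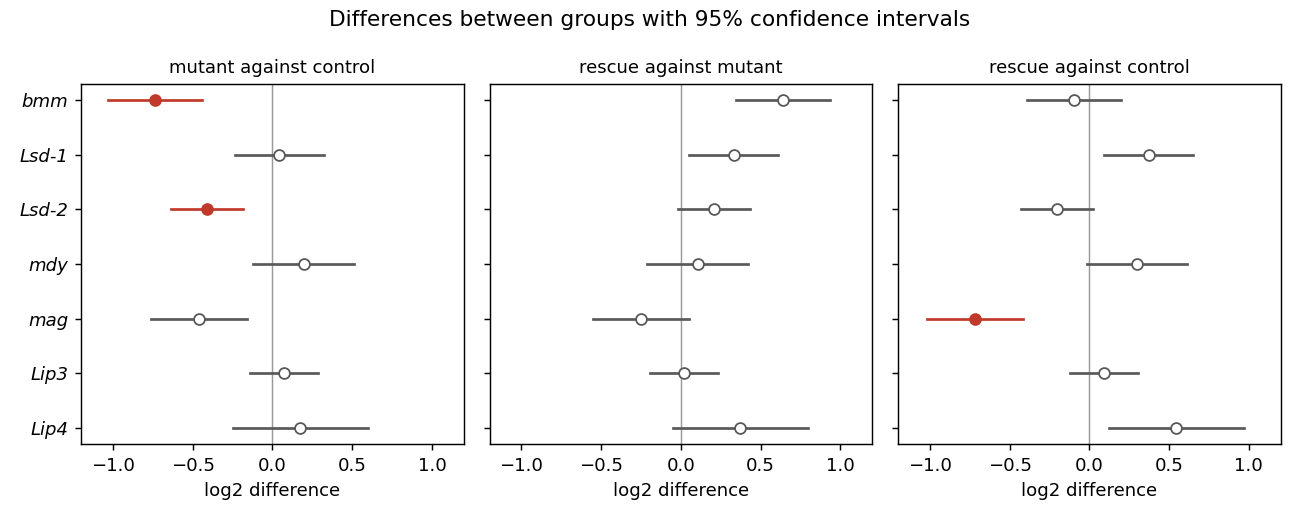
Log2 differences between groups (horizontal axis) for the 7 members, with bars for the 95% confidence interval of the limma fit; filled red points passed the threshold. bmm and Lsd-2 lie below 0 in mutant against control, 0 members pass in rescue against mutant, and mag lies below 0 in rescue against control.

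The level of bmm was set beside markers of the fat body, the main site of fat storage. In bulk RNA, fewer cells of a type and less RNA per cell cannot be told apart. Of 7 fat body markers, Lsp2, which encodes a larval serum storage protein also made in adult fat body, fell by 0.76 in the mutant (limma adjusted p = 0.00215). Lsp2 read 12693.3 and 12677.6 in controls, 7835.2 and 7134.1 in mutants and 11784.4 and 12081.5 with rescue. It was 0.67 higher in rescue than in mutant (limma adjusted p = 0.0129), a call lost on leaving out any single array of these groups (adjusted p from 0.0765 to 0.16). Mtp, the lipid transfer protein that loads lipoproteins, rose by 0.82 in the mutant (limma adjusted p = 0.00108) and fon by 0.40 (adjusted p = 0.0292), while apolpp, Apoltp, Tsf1 and Fbp1 did not pass (log2 differences of 0.14, -0.13, -0.27 and -0.13). The summed intensity of the 7 markers was 37397.3 and 35692 in controls, 32428.8 and 30972.4 in mutants and 37049.3 and 38426 with rescue, so it was lowest on the mutant arrays, as bmm was. Without Lsp2, a sum chosen after the values were seen, the other 6 gave 24704 and 23014.4 in controls, 24593.6 and 23838.3 in mutants and 25264.9 and 26344.5 with rescue. The part of fat body content in the bmm values was not tested.

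**Figure D3:**
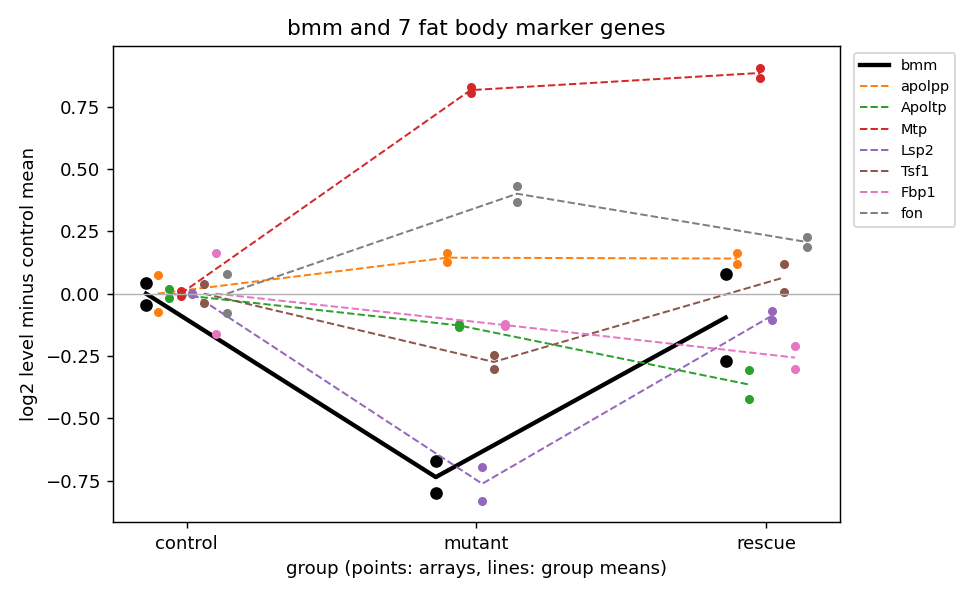
Log2 level minus the control mean (vertical axis) of bmm and 7 fat body markers in the 3 groups, with points for arrays and lines through the group means. bmm and Lsp2 both lie about the same distance below control in the mutant (-0.74 and -0.76) and near control in the rescue, while Mtp lies above control in mutant and rescue.

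For each member that passed somewhere, the 3 genes with the most similar profile over the 6 arrays were found by the root mean square difference of log2 levels, each centred on its own mean. For bmm these were Ance-5 (0.109), Ir68a (0.111) and Lsp2 (0.115), set against a range of 0.88 log2 for bmm itself. Lsd-2 lay closest to lama (0.0331), CG18744 (0.0348) and CG32081 (0.0364). The profile of mag was closest to bbg (0.0706), Ttc26 (0.0774) and CG7695 (0.0799), and bbg read 488.1 and 456.1 in controls, 364.8 and 331.7 in mutants and 279 and 296.1 with rescue. These are descriptions of 6 arrays that share 3 group means.

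Lists of other genes of fat storage and use were read beside the members, with 1 probe set per gene, the brightest. In the list of other neutral lipase family genes, 2 of 35 rose in the mutant and 4 fell, beside 6.88% and 3.88% of all probe sets. Many of the 35 read below the lower quartile of all tested probe sets (20.4 to 22.3), so whether these were above background is not known. CG6283 read 36 and 34 in controls, 129.5 and 127.9 in mutants and 33.5 and 30.8 with rescue. It was raised on both mutant arrays and at control level in the rescue, with log2 differences of 1.88 ± 0.08 for mutant against control (limma adjusted p = 5.26e-05) and -2.002 ± 0.082 for rescue against mutant (adjusted p = 1.31e-04), calls that held under all 14 settings. CG6753 rose by 0.84 ± 0.09 and Lip2 fell by 0.81 ± 0.10 in the mutant (limma adjusted p = 0.00222 and 0.00365), also under all 14 settings. CG5966 fell by 0.63 ± 0.15 in the mutant (limma adjusted p = 0.0419) but passed under 4 of 14 settings. It was no longer called when any array was left out other than mutant array 1 (adjusted p from 0.0624 to 0.125), nor with only these groups in the fit, the replicate block, array weights, the RNA integrity covariate or log2(value + 16) (adjusted p from 0.052 to 0.0964). The count of 6 lipase genes called in the mutant became 3 without mutant array 2 or either rescue array.

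Against the mutant, 1 of the 35 lipase genes rose in the rescue and 1, CG6283, fell, beside 0.693% and 0.709% of all probe sets. CG18302 was the one that rose, by 0.72 ± 0.12 (limma adjusted p = 0.0434), and it read 484.9 and 380.1 in controls, 282.5 and 291.4 in mutants and 467.4 and 476.1 with rescue. Its mutant arrays were below all others, as those of bmm were. CG18302 was also 1 of the 4 lipase genes that fell in the mutant against control (-0.58 ± 0.12, limma adjusted p = 0.025). Its call between rescue and mutant held under 8 of 14 settings. That call was lost on leaving out any single rescue or mutant array. It was also lost with the replicate block (adjusted p = 0.0958) and with log2(value + 16) (adjusted p = 0.0526). Against control, 1 of the 35 lipase genes rose in the rescue and 1 fell, beside 6.83% and 5.25% of all probe sets. CG6753 was higher (0.43 ± 0.09, limma adjusted p = 0.0276) and Lip2 lower (-0.40 ± 0.10, adjusted p = 0.0459). The first did not pass without control array 2 (0.39, adjusted p = 0.0768) or either rescue array (0.47 and 0.39, adjusted p = 0.132 and 0.189), and the second not without any array other than control array 2 (adjusted p from 0.0611 to 0.228). These calls held under 9 and 7 of 14 settings, and both were lost with the replicate block (adjusted p = 0.0589 and 0.0885). The count of 2 lipase genes called between rescue and mutant rose without either control array and fell without any single mutant or rescue array. The count of 2 between rescue and control rose without control array 1 and fell on leaving out any other single array. Calls over all probe sets moved the same ways.

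**Figure D4:**
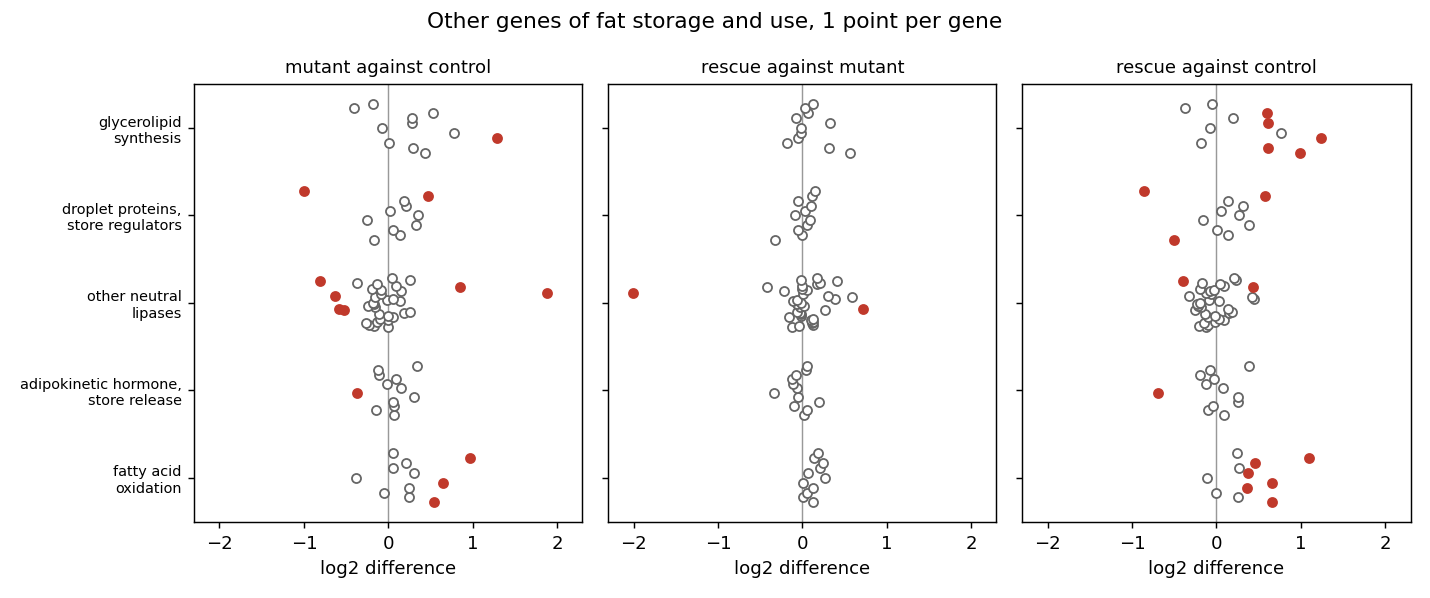
Log2 differences (horizontal axis) of the genes of 5 lists in the 3 comparisons, 1 point per gene, filled red where the gene passed the threshold. Of fatty acid oxidation genes 3 of 11 rose in the mutant and 6 of 11 in the rescue against control, and CG6283 is the point near 1.88 among the other neutral lipases in the mutant and near -2.002 in rescue against mutant.

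Of 11 glycerolipid synthesis genes, which build the backbone of triglyceride, 1 rose in the mutant and 5 in the rescue, both against control, with 0 that fell. All probe sets that were higher against control made up 6.88% and 6.83% in these comparisons. Between rescue and mutant 0 of the 11 genes passed (limma), beside 1.4% of all probe sets. The median log2 difference of the list was 0.28 for mutant against control, 0.03 for rescue against mutant and 0.60 for rescue against control. Agpat4, an acyltransferase gene, read 110.6 and 90.7 in controls, 246.9 and 242 in mutants and 228.5 and 244.6 with rescue. It rose by 1.29 ± 0.11 in mutant and 1.24 ± 0.11 in rescue (limma adjusted p = 0.000811 and 0.00112), and it passed under all 14 settings in both. Agpat1 (0.99 ± 0.18, adjusted p = 0.0158), Dgat2 (0.61 ± 0.15, adjusted p = 0.0408) and Agpat2 (0.61 ± 0.13, adjusted p = 0.025) rose in the rescue against control in limma. With the RNA integrity ratio as a covariate, the differences of Agpat1, Dgat2 and Agpat2 were 0.63, 0.33 and 0.34 (adjusted p = 0.0904, 0.279 and 0.134), and the count of 5 became 1. Agpat1 did not pass without rescue array 1 or 2 (adjusted p = 0.118 and 0.105), Agpat2 not without any single mutant or rescue array (from 0.0593 to 0.153), and Dgat2 not without any array other than control array 1 (from 0.0773 to 0.236). The count was also 1 without rescue array 1 or 2, 2 without either mutant array, and 4 without control array 2. In the mutant the count of 1 became 3 with array weights, 3 with the RNA integrity ratio as a covariate and 2 with the trended robust prior. It was also higher without control array 1, as calls over all probe sets were. Agpat1 passed under 11 of 14 settings, Agpat2 under 7 and Dgat2 under 4.

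Fatty acid oxidation, the use of released fatty acids in mitochondria and peroxisomes, had 3 of 11 genes that rose in the mutant and 6 in the rescue against control, and 0 that fell, where 6.88% and 6.83% of all probe sets rose and 3.88% and 5.25% fell. whd (withered) encodes carnitine palmitoyltransferase 1, which admits fatty acids to mitochondria. It read 883.5 and 862.6 in controls, 1711.8 and 1693.4 in mutants and 1841.8 and 1894.2 with rescue, so that all mutant and rescue arrays were far above both controls. The rises of whd were 0.96 ± 0.07 and 1.097 ± 0.073 (limma adjusted p = 0.000577 and 0.000377), and those of CPT2, carnitine palmitoyltransferase 2 of the same transport route, 0.65 ± 0.08 and 0.66 ± 0.08 (adjusted p = 0.00325 and 0.00354). Both genes passed in both comparisons under all 14 settings. Acox57D-d, a peroxisomal acyl-CoA oxidase gene, rose by 0.54 ± 0.10 in mutant and 0.66 ± 0.10 in rescue (limma adjusted p = 0.0165 and 0.00801), the first not without mutant array 1 (0.46, adjusted p = 0.116) or 2 (0.62, adjusted p = 0.0579) and the second not without rescue array 1 (0.59, adjusted p = 0.0834). scu, a hydroxyacyl-CoA dehydrogenase gene, rose in the rescue (0.46 ± 0.09, adjusted p = 0.0212), but not without control array 2 (0.38, adjusted p = 0.0601) or rescue array 1 or 2 (0.46, adjusted p = 0.139 and 0.141), nor with the RNA integrity covariate (0.40, adjusted p = 0.126). The count of 3 in the mutant lay from 2 to 4 with 1 array left out. The count of 6 in the rescue was 3 with the RNA integrity ratio as a covariate. It was lower without control array 2 or either rescue array and higher without control array 1. Calls over all probe sets moved the same ways. Rescue and mutant differed in 0 of the 11 genes (limma), with 2 at an unadjusted p under 0.05, beside 13.5% of all probe sets.

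Among 11 droplet proteins and fat store regulators, 1 rose and 1 fell in the mutant, and 1 rose and 2 fell in the rescue against control. Of all probe sets tested, 6.88% rose and 3.88% fell in the first comparison and 6.83% and 5.25% in the second. A count of 1 gene of 11 is near these shares. In either direction 18.2% and 27.3% of the list passed, beside 10.8% and 12.1% of all probe sets. sturkopf, which encodes a hydrolase of the lipid droplet surface, read 485.6 and 520.4 in controls, 236.4 and 266.6 in mutants and 284.3 and 271.4 with rescue. It fell by 1.002 ± 0.091 in the mutant and by 0.86 ± 0.09 in the rescue (limma adjusted p = 0.00114 and 0.00238), under all 14 settings in both, so that the rescue arrays did not return to control. adp (adipose), whose loss is known to make flies fat, rose by 0.47 ± 0.08 in mutant and 0.58 ± 0.08 in rescue (limma adjusted p = 0.0154 and 0.00735). The adp call in the mutant was lost without mutant array 1 (0.44, adjusted p = 0.112) or 2 (0.50, adjusted p = 0.0821), and that in the rescue without rescue array 1 (0.61, adjusted p = 0.0603) or 2 (0.55, adjusted p = 0.0793). HDAC4, a deacetylase that can activate foxo, fell by 0.50 ± 0.11 in the rescue against control (limma adjusted p = 0.0299), but not without any array other than control array 1 (adjusted p from 0.0635 to 0.19), and it passed under 6 of 14 settings. More genes of this list passed in the mutant without control array 1 and fewer without either mutant array. In the rescue fewer passed without either rescue array. Calls over all probe sets moved the same ways.

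Of 12 genes of adipokinetic hormone and store release signalling, 1 fell both in the mutant and in the rescue against control, Galphaq, and 0 rose. With 10.8% and 12.1% of all probe sets called in these comparisons, 1 of 12 is no more than the background. Galphaq encodes a G protein subunit that also serves phototransduction. It changed by -0.36 ± 0.09 in mutant (limma adjusted p = 0.0434) and by -0.70 ± 0.09 in rescue (adjusted p = 0.00438). The first was lost without any array other than control array 1 (adjusted p from 0.0892 to 0.205), holding under 6 of 14 settings, and the second without rescue array 2 (-0.64, adjusted p = 0.0557). Without control array 1 more genes of the list passed in both comparisons, as was so over all probe sets. Of the 5 neuronal and photoreceptor markers, trp was the one that passed against control, at 7420.8 and 8020.8 in control and 5468.6 and 5291.3 in rescue heads (-0.52, adjusted p = 0.00905), and the summed level of the 5 was 26135 and 25977.7 in control and 23061.2 and 23979.1 in rescue. Most of that sum came from Arr2 and trp. The part of these markers in the Galphaq values was not tested. Akh, the hormone gene, and AkhR, its receptor gene, were named after their values were seen: they differed by -0.15 and 0.07 in the mutant (limma adjusted p = 0.363 and 0.778).

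**Figure D5:**
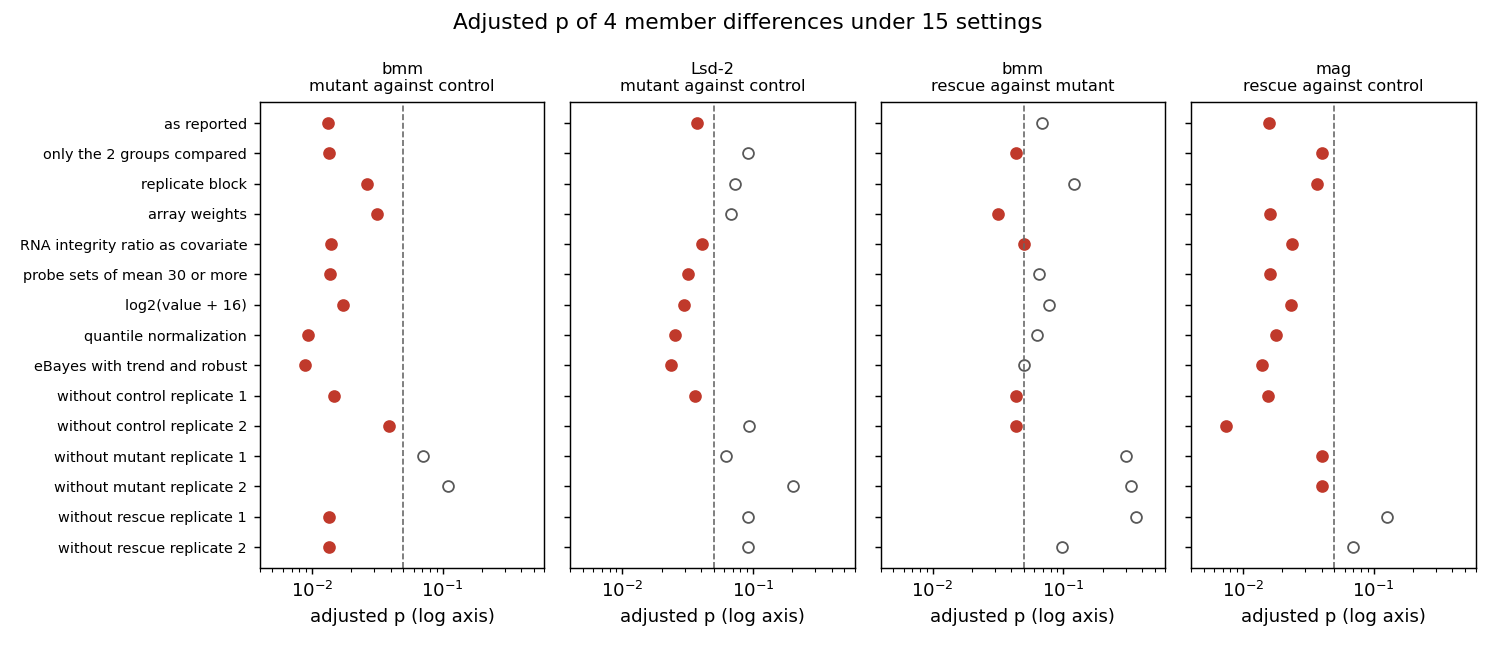
Adjusted p (horizontal log axis) of 4 member differences as reported and under 14 alternative settings, filled red under the dashed threshold of 0.05. The fall of bmm in the mutant misses the threshold without mutant array 1 or 2 (0.0714 and 0.11), and the fall of mag in the rescue without rescue array 1 or 2 (0.126 and 0.0694).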

How the data were processed

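Intensity values were deposited by the authors as 1 table of 18952 probe sets and 6 arrays, made with RMA (background correction, quantile normalization and summarising of probes) per the submitters' processing notes, with no version stated there. They were linear, from 5.6 to 16778.3, and log2 was taken. The normalization removes a change shared by all transcripts. No detection call or depth exists, so the 2 arrays of each group limit the precision.

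Groups and replicate numbers came from the titles. After 183 array control probe sets were left out, limma 3.58.1 in R 4.3.3 (lmFit, eBayes, two-sided, 3 groups, 3 residual and 4 prior degrees of freedom) was fitted to 18769 probe sets, with Benjamini-Hochberg adjustment and a threshold of 0.05. An exact permutation test of 2 against 2 arrays cannot go below p = 0.333. Confidence intervals are those of the fit for a single probe set. The procedure was tested on simulated data.

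Gene names came from the platform annotation, in which 13647 tested probe sets had 1 symbol. Older names were matched through the gene table of Release 6 plus ISO1 MT, and no coordinates were used. All members are named; from each list, genes past the threshold are named, at most 4 per comparison, largest first. Lsp2 was added to the settings as a comparator. The members and lists were chosen with earlier results of these data known. The 14 alternatives were a fit of 2 groups only, a replicate block, array weights, an RNA integrity covariate (mean log2 of the 5' to 3' ratio of actin and GAPDH control probe sets), a filter at a group mean of 30, an offset of 16, quantile normalization, a trended robust prior, and each of the 6 arrays left out.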

Additional observations from a re-analysis of the deposited data

How the results depend on the processing

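The number of members past the threshold between mutant and control was 2, and it became 1 with only these groups in the fit, with the replicate block or with array weights, and 3, with mag added, with the RNA integrity ratio as a covariate. It lay from 0 to 4 with 1 array left out, with 0 without either mutant array and 4 without control replicate 1, where mdy and Lip4 were added and calls over all probe sets rose from 1291 higher and 729 lower to 2152 and 1877. Between rescue and mutant 0 became 2 with only these groups in the fit and 1 with array weights or with the RNA integrity ratio as a covariate. Over all probe sets the calls were 361 higher and 325 lower with only these groups and 355 and 416 with array weights. With the covariate they were 163 and 161, beside 130 and 133 as reported. Between rescue and control 1 lay from 0 to 4 with 1 array left out, again highest without control replicate 1. Leaving out an array also removes degrees of freedom, since the lone array of a group is then assumed to vary like the others. For a comparison of 2 groups, leaving out an array of the third group gives the same fit as these groups alone. The 14 settings are therefore not 14 distinct checks.

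Of 291 recomputed member differences, 264 kept their side of the threshold, 15 passed that had not and 12 no longer passed; 0 turned direction with a call on either side. Settings that gave the same fit were counted each time. Lip3 had no value under the filter at 30. Replicate numbers did not pair the samples by any label. The deviations of same-numbered arrays correlated at -0.255 for control and mutant, -0.188 for control and rescue, and 0.00356 for mutant and rescue across probe sets. With the replicate block, Lsd-2 no longer passed between mutant and control (-0.41, adjusted p = 0.0727), and no other member call changed. The count of all probe sets past the threshold between rescue and mutant was 76 higher and 54 lower with the block, beside 130 and 133 without it.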
